A study of Mus musculus with 4 samples.

Results

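The interleukin 6 family comprises secreted cytokines that share 1 signalling receptor chain, gp130, the product of Il6st. The 10 genes described here are 6 ligands (Il6, Lif, Osm, Il11, Ctf1 and Clcf1) and 4 receptor chains (Il6ra, Il6st, Lifr and Osmr). They were taken by gene name, with earlier results of these data known, from 23997 gene symbols in the deposited table, and each had 1 row there. RNA sequencing was done on mouse mesenchymal stem/progenitor cells (MSPC) in culture, stromal cells that adhere and expand when bone marrow is put in culture. There were 2 libraries of wild-type (WT) cells and 2 of Asxl1-/- cells, all of the C57BL/6 background, at passages 5 to 10 and grown in MesenCult with 20% supplement. Asxl1 encodes a chromatin regulator of the Polycomb and BAP1 system. The labels give neither the age of the mice, the kind of Asxl1 allele, nor whether the libraries of a genotype came from separate mice, so p-values measure the spread between these libraries, which may be technical.

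As background, the cytokines of the family engage gp130 together with further receptor chains, some of which several ligands share. Il6 binds the chain encoded by Il6ra, Lif binds that of Lifr, and mouse Osm acts chiefly through that of Osmr. Cardiotrophin 1 (Ctf1) and cardiotrophin-like cytokine (Clcf1) also signal through Lifr with gp130. The engaged receptors activate JAK kinases and the transcription factor STAT3, and SOCS proteins made in response shut the signal off. Marrow stromal cells are a known source of Il6 and Lif, and the family acts on blood progenitors, osteoblasts and osteoclasts.

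Levels are in FPKM, the fragment count of a gene divided by its transcript length and the library's mapped fragments. The WT libraries had 14.6 and 11.2 FPKM of Asxl1 and the Asxl1-/- libraries 0.273 and 0.312, which follows the labels. FPKM sums ran from 497274 to 703662, and 10946 to 11359 genes per library reached 1 FPKM. Read numbers are unknown, but the steps between the lowest values put the depths of the other libraries at 0.955 to 1.03 times that of WT replicate 1. Of 16 MSPC markers, 12 stood at 1 FPKM or more in all 4 libraries, among them the collagen gene Col1a1 (1298 to 2043) and Cxcl12 (641 to 1297). Pdgfra, 1 of these 12, stood at 4.78 in WT replicate 2 and at 58.8 to 80.9 in the other libraries. The remaining 4 were low in some or all libraries: Eng stood at 10.7 in WT replicate 1 and at 0.571 to 0.912 elsewhere, Nt5e at 0.493 and 0.507 in Asxl1-/- against 2.31 and 7.19 in WT, Alcam at 0.674 in Asxl1-/- replicate 1, and Lepr, a marker of marrow stroma in the animal, at or below 0.0426. Of the 15 MSPC markers averaging 1 FPKM or more, 3 were higher and 6 lower in both Asxl1-/- libraries than in both WT libraries, against 15.6% and 25.2% of the 11481 genes at that level, and their part in the members' values was not tested. Summed FPKM of 18 macrophage markers stood at 7.98 and 598 in WT replicates 1 and 2 and at 88.0 and 398 in Asxl1-/- replicates 1 and 2, of which the Fc receptor subunit Fcer1g made up 72.2 in Asxl1-/- replicate 1. Lyz2, the macrophage lysozyme, stood at 2.85 and 400 FPKM in WT and at 2.36 and 293 in Asxl1-/-. The macrophage signal thus separated the replicates 2 from the replicates 1 rather than the genotypes, since 15 of the 18 markers had their 2 highest values in the replicates 2. Summed markers of neutrophils (0.296 to 4.33 FPKM), lymphocytes (0.0128 to 1.28) and endothelium (0.290 to 8.15) were low, with Cd3e, Emcn and Cldn5 listed at 0 in all 4 libraries, and the 8.15 was mostly Cdh5 at 7.11 in Asxl1-/- replicate 2.

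Of the receptor chains, Il6st and Osmr were abundant, and Lifr and Il6ra stood below the ligand Clcf1 in every library. FPKM is scaled to transcript length, so levels can be set beside each other: Il6st and Osmr held the top 2 places in every library, and Clcf1 was the leading ligand in 3 of the 4. No member passed the test across all genes, in which 0% of 11481 genes were called higher and 0.0261% lower. Osmr was higher in both Asxl1-/- libraries than in both WT libraries, and Clcf1, Ctf1 and Il11 were lower in both; for the other 6 members the genotypes overlapped. Of all genes tested, 15.6% were higher and 25.2% lower in both Asxl1-/- libraries in this way. Ctf1 and Il11 averaged under 1 FPKM and were not among the genes tested. Of the 5824 genes above 0 but under that level, 7.98% were higher and 20.3% lower in both Asxl1-/- libraries. Il6 and Il6st differed more between libraries of 1 genotype than between the genotypes.

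**Figure D1:**
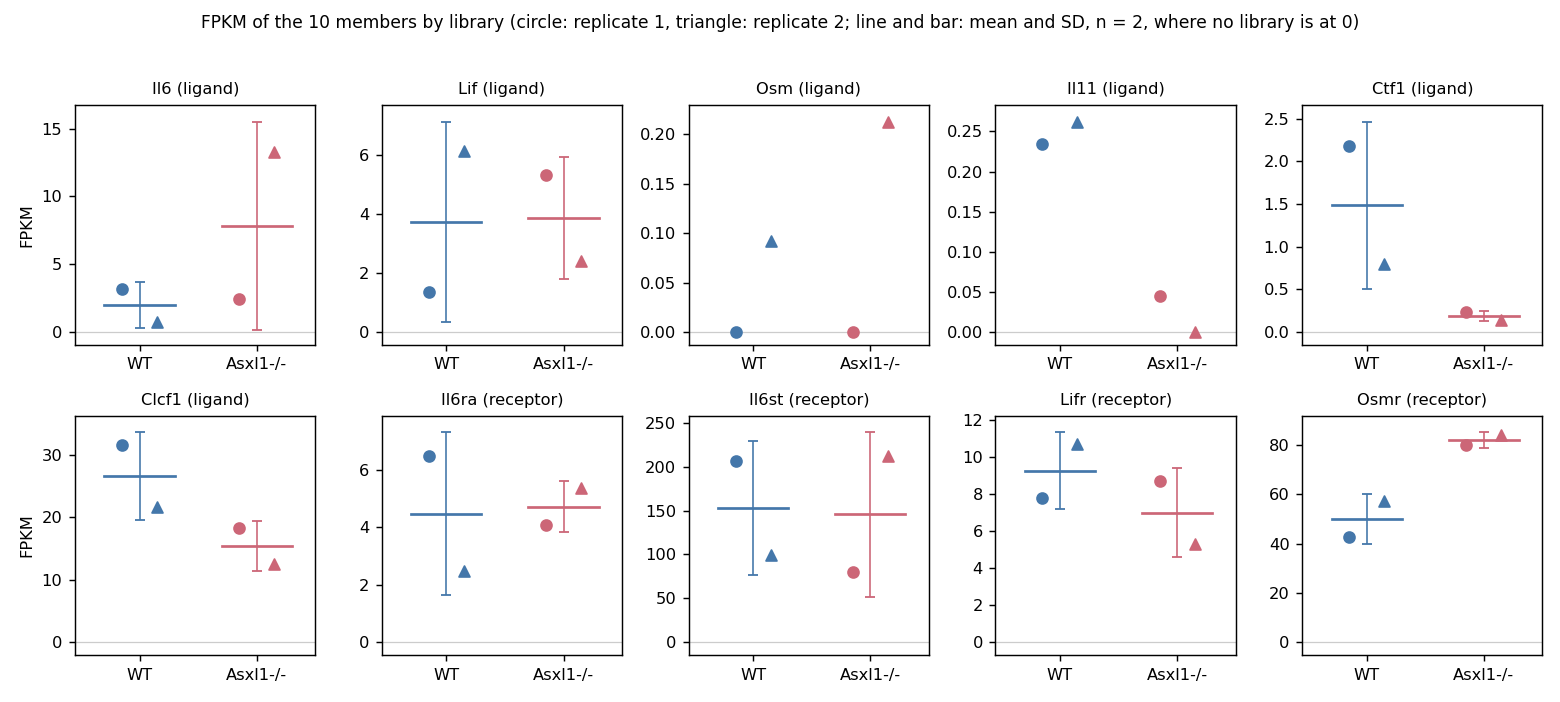
FPKM of the 10 members in each library, with WT in blue and Asxl1-/- in red, circles for replicate 1 and triangles for replicate 2; each panel has its own linear axis from 0, and lines with bars give mean and SD (n = 2), left out for Osm and Il11, which have a library at 0. Both Asxl1-/- libraries sit above both WT libraries for Osmr and below them for Clcf1, Ctf1 and Il11.

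Among the ligands, Il6 (mm10 chromosome 5, 30013161 to 30019968), the cytokine that gives the family its name and drives acute-phase and B cell responses, stood at 3.19 and 0.765 FPKM in WT replicates 1 and 2 and at 2.41 and 13.3 FPKM in Asxl1-/- replicates 1 and 2. A single library was high, Asxl1-/- replicate 2, and Asxl1-/- replicate 1 lay inside the WT range. Mean FPKM were 1.98 ± 1.71 in WT and 7.83 ± 7.67 in Asxl1-/- (SD, n = 2 each), and the log2 fold change of Asxl1-/- over WT, on FPKM + 1, was 1.36 (standard error 0.84, limma adjusted p = 0.712). The libraries of WT differed by 1.25 and those of Asxl1-/- by 2.06 on the same log2 scale. In the authors' deposited table the log2 fold change of Il6 was 2.13 with a q of 0.804.

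Lif (chromosome 11, 4257568 to 4272514), the leukemia inhibitory factor that keeps mouse embryonic stem cells undifferentiated and acts on osteoblasts, stood at 1.35 and 6.14 FPKM in WT and at 5.34 and 2.41 FPKM in Asxl1-/-. The WT libraries held both the lowest and the highest value. The log2 fold change was 0.18 (standard error 0.66, limma adjusted p = 0.955), and it was negative without WT replicate 1 (-0.62) and without Asxl1-/- replicate 1 (-0.27).

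Osm (chromosome 11, 4236785 to 4241026), oncostatin M, a cytokine made mainly by macrophages and other blood cells, lies 16.5 kb from Lif. It was listed at 0 in WT replicate 1 and Asxl1-/- replicate 1 and stood at 0.0916 and 0.212 FPKM in WT replicate 2 and Asxl1-/- replicate 2. These are the libraries in which Lyz2 stood at 400 and 293 FPKM, and the part of macrophage RNA in the Osm values was not tested. In bulk RNA, fewer cells of a type and less RNA per cell cannot be told apart.

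Il11 (chromosome 7, 4772378 to 4782857), a ligand that acts through gp130 pairs as Il6 does, had 0.234 and 0.262 FPKM in WT. Its values in Asxl1-/- replicates 1 and 2 were 0.0455 FPKM and a listed 0. Both Asxl1-/- libraries were the low ones, at levels where the number of reads is unknown. Ctf1 (chromosome 7, 127712736 to 127718185), cardiotrophin 1, first known from heart muscle growth, stood at 2.17 and 0.794 FPKM in WT and at 0.231 and 0.142 FPKM in Asxl1-/-. The WT mean of 1.48 ± 0.976 FPKM was 7.96 times the Asxl1-/- mean of 0.187 ± 0.0627 FPKM (SD, n = 2 each). In the authors' deposited table Ctf1 had a log2 fold change of -2.86, a p of 0.0699 and a q of 0.783, and Il11 and Osm were not tested there. Osm, Il11 and Ctf1 had a mean under 1 FPKM over the 4 libraries and did not enter the limma test at that minimum. With no filter on low values limma covered 17305 genes, and 0 members passed there either. In that fit the log2 fold change of Il11 was -0.29, with an unadjusted limma p of 0.00488 and an adjusted p of 0.578. Ctf1 had -1.01, with an unadjusted limma p of 0.042 and an adjusted p of 0.663, and Osm had 0.08, with a limma adjusted p of 0.882. Of the genes in that fit, 5.21% were lower with an unadjusted p under 0.05. Of the 5824 genes above 0 but averaging under 1 FPKM, the genotypes did not overlap for 20.3% with Asxl1-/- lower and for 7.98% with Asxl1-/- higher.

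Clcf1 (chromosome 19, 4214392 to 4222615), a neurotrophic and B cell stimulating cytokine, stood at 31.5 and 21.6 FPKM in WT and at 18.2 and 12.5 FPKM in Asxl1-/-. The genotypes did not overlap, though Asxl1-/- replicate 1 and WT replicate 2 lay close together. Mean FPKM were 26.6 ± 7.03 in WT and 15.4 ± 4.02 in Asxl1-/- (SD, n = 2 each), and the log2 fold change was -0.75 (standard error 0.32, limma adjusted p = 0.632). With each library left out in turn it ran from -1.01 to -0.49. In the authors' deposited table it was -0.67 with a q of 0.999.

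The stretches of genome just upstream of a start site of the ligand genes Il6, Lif and Il11 are shown because they share the AP-1 letters TGANTCA, which the Fos and Jun proteins bind. For Il11 this holds for the inner start only, and the window before its outer start (chr7:4782858-4783107) has no match. The sequences are from RefSeq on GRCm38.p6 (the mm10 assembly), 5′ to 3′ on the gene's strand, ending at the base before the start site or, for Lif, 11 bases earlier, where GENCODE M21 places exon sequence. Capitals mark matches to TGANTCA, which reads the same on both strands, and in Il6 also to the NF-kB consensus, searched on both strands.
Il6, chr5:30012864-30013113, plus strand: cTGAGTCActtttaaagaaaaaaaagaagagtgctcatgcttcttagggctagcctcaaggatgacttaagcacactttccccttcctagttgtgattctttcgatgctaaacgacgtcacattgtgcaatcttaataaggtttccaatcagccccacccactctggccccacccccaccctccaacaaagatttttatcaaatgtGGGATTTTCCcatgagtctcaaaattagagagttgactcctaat
Lif, chr11:4257318-4257556, plus strand: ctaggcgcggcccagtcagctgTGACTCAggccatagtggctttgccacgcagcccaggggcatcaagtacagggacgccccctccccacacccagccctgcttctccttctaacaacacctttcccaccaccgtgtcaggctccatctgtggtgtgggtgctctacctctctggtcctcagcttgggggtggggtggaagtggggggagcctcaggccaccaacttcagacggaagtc
Il11, chr7:4778142-4778391, minus strand, the inner of its start sites and in an intron of the longer transcript: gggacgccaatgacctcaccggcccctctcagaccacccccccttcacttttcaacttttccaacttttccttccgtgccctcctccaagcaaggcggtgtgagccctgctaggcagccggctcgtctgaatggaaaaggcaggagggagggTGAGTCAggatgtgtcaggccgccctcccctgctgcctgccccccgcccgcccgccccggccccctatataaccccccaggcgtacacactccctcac

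Of the 10 members, 8 had an entry in the sequence table, and Osm and Clcf1 did not. The 8 had 10 windows of 250 bases upstream of a start, with 2 each for Il11 and Lifr. The AP-1 letters were found in 3 of the 10 windows, beginning 249, 228 and 98 bases before the start in Il6, Lif and Il11, against 6.75% of 32817 such windows of mouse genes. The NF-kB consensus was found in 1 of the 10 windows, that of Il6, beginning 44 bases before the start, against 3.9% of windows, and does not overlap the AP-1 match. The STAT letters TTCNNNGAA were found in 0 of the 10 and in 7.01% of windows. Such a match is a description of the letters and not of binding. The motifs were picked after the expression values were seen. Fos, chosen after its values were seen, stood at 283 and 14.4 FPKM in WT and at 63.7 and 217 FPKM in Asxl1-/-. Il6 shared the 2 higher libraries of Fos (WT replicate 1 and Asxl1-/- replicate 2). Lif was lowest in these 2, and Il11 was low in both Asxl1-/- libraries. Of the members whose windows had no AP-1 match, Il6st and Il6ra were also highest in these 2 libraries, and Ctf1, Lifr and Osmr were not.

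Among the receptors, Osmr (chromosome 15, 6813577 to 6874313), the chain by which oncostatin M reaches gp130 in stromal and bone-forming cells, stood at 42.8 and 57.1 FPKM in WT and at 79.8 and 84.1 FPKM in Asxl1-/-. The genotypes did not overlap, and the Asxl1-/- libraries lay closer to each other than the WT libraries did. Mean FPKM were 50.0 ± 10.1 in WT and 81.9 ± 3.09 in Asxl1-/- (SD, n = 2 each), or 1.64 times higher in Asxl1-/-. The log2 fold change was 0.72 (standard error 0.26), with an unadjusted limma p of 0.0432 and an adjusted p of 0.617. It ran from 0.51 to 0.92 with each library left out in turn. In the authors' deposited table Osmr had a log2 fold change of 0.82, a p of 0.0771 and a q of 0.8.

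Lifr (chromosome 15, 7129572 to 7197489), the receptor chain for Lif, Ctf1 and Clcf1, lies 255.3 kb from Osmr. It stood at 7.80 and 10.7 FPKM in WT and at 8.69 and 5.29 FPKM in Asxl1-/-. Asxl1-/- replicate 2 was the low library, and Asxl1-/- replicate 1 lay between the WT values. The log2 fold change was -0.38 (standard error 0.33, limma adjusted p = 0.79).

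Il6st (chromosome 13, 112464070 to 112506860), the shared gp130 chain, stood at 207 and 99.2 FPKM in WT and at 79.5 and 212 FPKM in Asxl1-/-. Each genotype had 1 high and 1 low library, WT replicate 1 and Asxl1-/- replicate 2 being high, and the libraries differed 2.08-fold within WT and 2.66-fold within Asxl1-/-. Mean FPKM were 153 ± 76.0 in WT and 146 ± 93.5 in Asxl1-/- (SD, n = 2 each), and the log2 fold change was -0.14 (standard error 0.62, limma adjusted p = 0.968). It was 0.39 without WT replicate 1 and 0.56 without Asxl1-/- replicate 1.

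Il6ra (chromosome 3, 89869324 to 89913162), the chain that binds Il6 and is typical of leukocytes and hepatocytes, stood at 6.46 and 2.46 FPKM in WT and at 4.09 and 5.34 FPKM in Asxl1-/-. The WT libraries were the highest and the lowest, and WT replicate 2, the library with the highest summed macrophage markers (598 FPKM), had the lowest Il6ra. Within Asxl1-/- it was the other way, with the higher Il6ra in replicate 2, the library higher in these markers (398 FPKM). The part of macrophage RNA in the Il6ra values was not tested. The log2 fold change of Il6ra was 0.16 (standard error 0.45, limma adjusted p = 0.94), and it was -0.39 without WT replicate 2.

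Across the 4 libraries the order of the members' levels was stable at the top and not below it. Il6st stood first in 3 libraries, and in Asxl1-/- replicate 1 it equalled Osmr, with 79.5 against 79.8 FPKM. Clcf1 came next in 3 libraries and Il6 overtook it in Asxl1-/- replicate 2, at 13.3 against 12.5 FPKM. Lifr, Il6ra, Il6 and Lif changed places between libraries, so neighbours in this middle range did not differ beyond their spread. Il11 and Osm reached at most 0.262 and 0.212 FPKM, and Ctf1 exceeded 1 FPKM in WT replicate 1 alone, where it stood above Lif.

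Of the 7 members tested, 0 passed an adjusted p of 0.05 in limma. An unadjusted p under 0.05 was reached by 1 of the 7, Osmr, against 2.51% of all genes tested higher and 5.41% lower. The genotypes did not overlap for 1 of the 7 with Asxl1-/- higher (Osmr) and for 1 of the 7 with Asxl1-/- lower (Clcf1), against 15.6% and 25.2% of all genes tested, so these counts are near the background. The median log2 fold change of the 7 was 0.16, with 4 positive and 3 negative, beside -0.07 over all genes tested. For 5 of the 7 the libraries of at least 1 genotype differed by more than the genotype means did, Osmr and Clcf1 being the exceptions. None of the 8 members tested in the authors' deposited table was marked significant, against 0.543% of 12881 genes higher and 0.396% lower. An exact two-sided permutation test of 2 libraries against 2 cannot give a p below 0.333, which was the value for Osmr, Clcf1, Ctf1 and Il11.

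**Figure D2:**
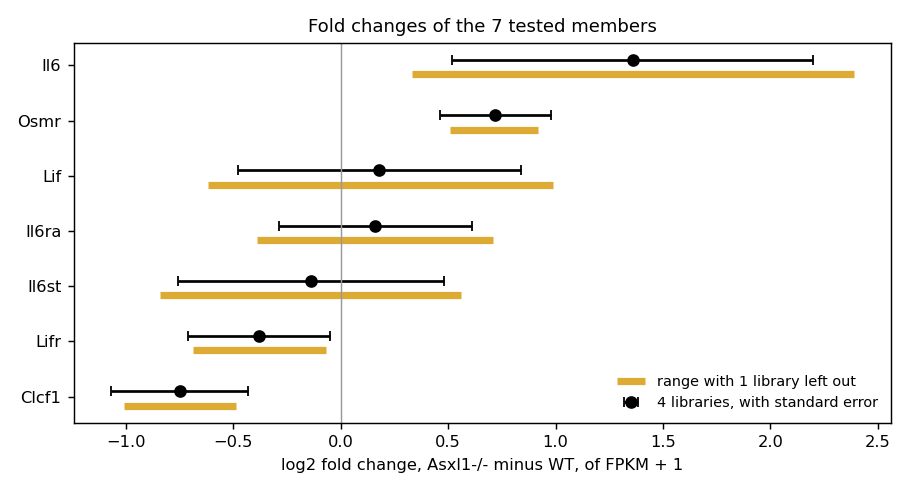
Log2 fold changes of FPKM + 1, Asxl1-/- minus WT, for the 7 tested members, as points with standard errors, and in yellow the range when each library is left out in turn. The yellow ranges of Osmr (0.51 to 0.92), Il6 (0.33 to 2.39), Lifr (-0.69 to -0.07) and Clcf1 (-1.01 to -0.49) stay on 1 side of 0, and those of Lif, Il6ra and Il6st cross it.

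Of 14 genes listed as other ligands and receptors of the family, 2 had a mean of at least 1 FPKM and 0 passed the adjusted threshold. The list is wider than the gp130 definition given above, since it also holds Lepr, Csf3, Csf3r, Il31 and Il31ra. Il11ra1, the receptor chain for Il11, stood at 84.1 and 31.2 FPKM in WT and at 0.430 and 40.2 FPKM in Asxl1-/-. The low value belonged to a single library, Asxl1-/- replicate 1, while Asxl1-/- replicate 2 lay inside the WT range. Its log2 fold change was -2.77 (standard error 1.68, limma adjusted p = 0.707) and -0.34 without Asxl1-/- replicate 1. Il11ra2, on the same list and named after its values were seen, stood at or below 1.224e-06 FPKM in every library. How reads were divided between Il11ra1 and Il11ra2 was not tested. Cntfr, the chain through which Clcf1 reaches gp130 and Lifr, named after its values were seen, was low, at 0.577 and 0.198 FPKM in WT and at 0.147 and 0.0679 FPKM in Asxl1-/-.

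All 19 genes listed as JAK-STAT transducers and adaptors were tested, and 0 passed the adjusted threshold. The list also holds Adam10 and Adam17, which encode membrane proteases and are neither. The median log2 fold change of the 19 was 0.13, with 15 positive (Adam10 and Adam17 among them) and 4 negative, beside -0.07 over all genes tested. The genotypes did not overlap for 2 higher (Stat3 and Adam17) and 2 lower of the 19 genes, against 15.6% and 25.2% of all genes tested. Stat3, the main transcription factor of the pathway, stood at 43.6 and 44.8 FPKM in WT and at 51.2 and 73.7 FPKM in Asxl1-/- (log2 fold change 0.47, standard error 0.28, limma adjusted p = 0.701). The adaptor gene Shc1 stood at 87.6 and 56.9 against 41.9 and 50.7 FPKM. The docking protein gene Gab1, at 8.30 and 6.65 against 7.56 and 17.4 FPKM, was high in Asxl1-/- replicate 2 alone.

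Of 16 feedback inhibitors 15 were tested and 0 passed the adjusted threshold. The median log2 fold change was -0.06, with 6 positive and 9 negative, beside -0.07 over all genes tested. For 2 higher and 2 lower of the 15 the genotypes did not overlap, against the same 15.6% and 25.2%. Cish, a SOCS family inhibitor of cytokine receptors, stood at 3.03 and 3.68 FPKM in WT and at 5.84 and 5.80 FPKM in Asxl1-/- (log2 fold change 0.65, standard error 0.25, limma adjusted p = 0.632). Socs1 stood at 4.36 and 1.32 against 1.24 and 1.67 FPKM, so WT replicate 1 was high and the rest were alike. Socs6 stood at 17.1 and 13.5 against 13.5 and 11.0 FPKM, and the phosphatase gene Ptpn2 at 27.3 and 15.7 against 18.4 and 15.5 FPKM. Socs3, the gp130 inhibitor, was named after its values were seen. It stood at 31.7 and 11.6 FPKM in WT and at 17.8 and 32.3 FPKM in Asxl1-/-, with the high libraries of Il6st.

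Genes known as STAT3 targets gave 0 calls among 23 tested of 24 listed, and a median log2 fold change of -0.11 with 9 positive and 14 negative, beside -0.07 over all genes tested. The genotypes did not overlap for 4 higher and 3 lower of the 23 genes, against 15.6% and 25.2% of all genes tested. An unadjusted limma p under 0.05 was reached by 3 higher and 1 lower, against 2.51% and 5.41%. Haptoglobin (Hp), a hemoglobin-binding acute-phase protein, stood at 18.4 and 11.1 FPKM in WT and at 64.3 and 82.8 FPKM in Asxl1-/-. Its log2 fold change was 2.27 (standard error 0.33, limma adjusted p = 0.41). Lbp, the lipopolysaccharide-binding acute-phase protein, stood at 3.74 and 3.29 against 11.2 and 14.6 FPKM (log2 fold change 1.61, standard error 0.26, limma adjusted p = 0.474). The Asxl1-/- mean was 4.98 times the WT mean for Hp and 3.67 times for Lbp. Lcn2 and Saa3, also on this list and named after their values were seen, did not share this pattern. Lcn2 stood at 9.53 and 0.931 FPKM in WT against a listed 0 and 0.192 in Asxl1-/-. Saa3 overlapped, at 1.28 and 1.56 against 3.59 and a listed 0 FPKM.

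The receptor gene Il4ra stood at 5.42 and 8.24 FPKM in WT and at 43.0 and 13.6 FPKM in Asxl1-/-, highest in Asxl1-/- replicate 1. The transcription factor gene Myc stood at 46.8 and 27.0 against 20.0 and 7.90 FPKM. In the authors' deposited table Hp (log2 fold change 2.44, q of 0.00836) and Il4ra (2.15, q of 0.021) were marked significant, and Lbp (1.99, q of 0.155) and Myc (-1.28, q of 0.367) were not. Hp, Lbp and Il4ra also answer to other signals, and the members' part in their levels was not tested.

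A list of 18 genes that act on Il6 levels holds inducers, the inhibitor gene Nfkbia, and Zc3h12a, Zfp36 and Arid5a, which act on Il6 mRNA. Of these 18 genes 15 were tested, 0 passed, and the median log2 fold change was -0.13, beside -0.07 over all genes tested. Since the list mixes inducers and inhibitors, this median gives no direction for Il6 induction. In 3 higher and 3 lower of the 15 the genotypes did not overlap, against 15.6% and 25.2% of all genes tested. Tlr2, a receptor for bacterial lipoproteins, stood at 14.8 and 6.75 FPKM in WT and at 1.10 and 2.39 FPKM in Asxl1-/- (log2 fold change -2.05, standard error 0.47, limma adjusted p = 0.514). The NF-kB gene Nfkb1 stood at 25.2 and 17.8 against 9.49 and 16.2 FPKM, and Nfkbiz, a nuclear cofactor of NF-kB, at 24.3 and 15.4 against 12.1 and 14.9 FPKM. The Toll-like receptor adaptor gene Myd88 went the other way, at 10.5 and 18.2 against 22.0 and 22.6 FPKM.

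**Figure D3:**
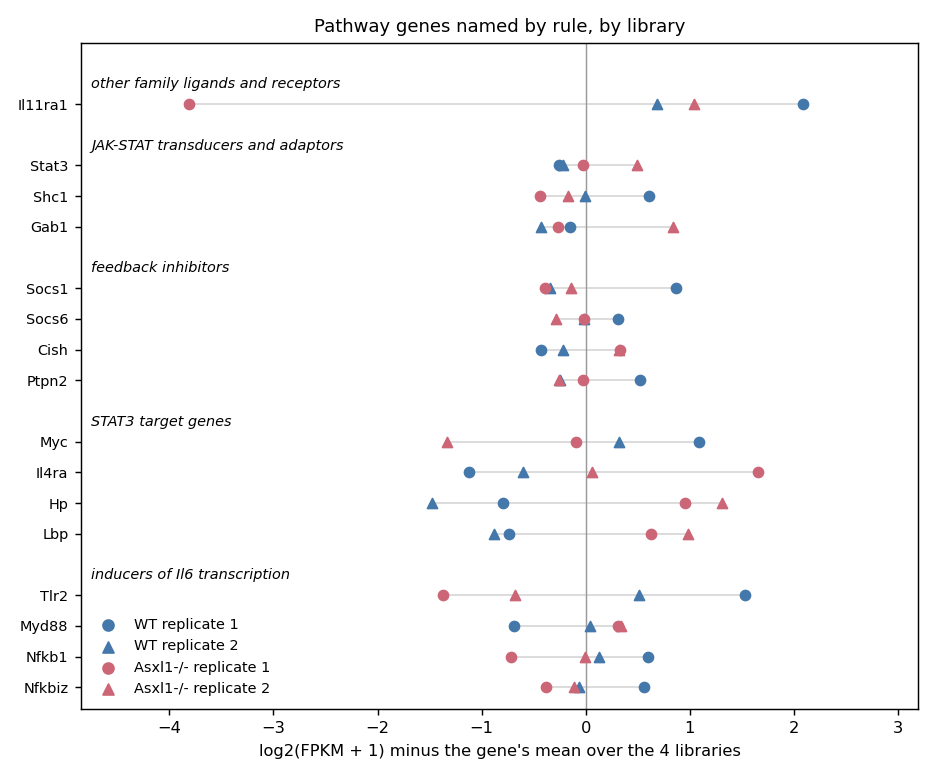
Log2(FPKM + 1) minus the gene's mean over the 4 libraries for the pathway genes named by rule, grouped by list; blue is WT, red is Asxl1-/-, circles are replicate 1 and triangles replicate 2. Both red points lie right of both blue points for Hp, Lbp, Il4ra, Cish, Myd88 and Stat3. Both lie left of both blue points for Shc1, Socs6 (only just), Myc, Tlr2, Nfkb1 and Nfkbiz. The genes were named for the smallest p of their list, which favours such gaps. Il11ra1 has 1 far left point, Asxl1-/- replicate 1 at 0.430 FPKM.

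The genes whose levels followed Clcf1 and Il6st most closely were taken from 3649 tested genes with a range of at least 1 on the log2 scale. For Clcf1 these were the calcineurin subunit Ppp3ca, the translation factor subunit Eif2b3 and the exosome nuclease Dis3, with Pearson's r from 0.9995 to 0.9999 over the 4 libraries. Ppp3ca stood at 50.9 and 33.4 FPKM in WT and at 28.1 and 18.8 FPKM in Asxl1-/-. For Il6st they were Ctnnal1, the natriuretic peptide receptor Npr3 and the bone morphogenetic protein Bmp4, with r from 0.9975 to 0.999. Bmp4 stood at 43.4 and 4.90 FPKM in WT and at 2.10 and 60.4 FPKM in Asxl1-/-, a wider range than that of Il6st. With only 4 points many genes reach such values: 44 genes had an r above 0.99 with Clcf1 and 16 with Il6st.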

How the data were processed

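RNA of 2 WT and 2 Asxl1-/- MSPC libraries was sequenced. Groups follow the genotype label, and replicates are numbered in accession order, so a number pairs no samples. TopHat2 (2.0.3), Cufflinks (2.2.1) and Cuffdiff were run by the authors on mm10, per the submitters' processing notes; for the annotation, the library kit and the strandedness, the choice is not given in the sources used here. The authors deposited FPKM for 24487 rows, and a Cuffdiff table with group FPKM, a log2 fold change and p-values and q-values per the file headers. The FPKM table also has 2 columns that match no sample and were not used; a deposited log table was not used. Where a symbol had several rows, the row with the highest mean was kept. File starts are given with 1 added. The span of 0 of the 10 members overlapped another row.

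FPKM are not counts, so limma 3.58.1 in R 4.3.3 (lmFit, then eBayes with trend) was run on log2(FPKM + 1) for the 11481 genes averaging 1 FPKM or more, with Benjamini-Hochberg adjustment at 0.05. Fold changes on this scale understate those of low genes. Alternatives were other pseudocounts (0.1 and 0.5), other filters (none, or a mean of 5 FPKM), scaling by median ratios or quantiles, no trend, and each library left out; the fit without genes spanning under 300 bp and the pairs of libraries alike in macrophage markers were added after seeing the data. The members and the 10 gene lists (148 of 150 symbols matched a row) were chosen with earlier results of these data known. Named are all members, Asxl1, up to 4 tested genes per pathway list with the smallest p, the 4 cell type markers per list with the highest mean (given where a statement rests on them), and for Clcf1 and Il6st, the highest ligand and receptor, the 3 genes with the highest Pearson's r that are no members, unnamed gene models or genes under 300 bp. Some genes of the lists are counted there but not reported here by name. Python 3.11.15 was used for tables and plots, with pandas 2.3.3, numpy 2.4.6 and matplotlib 3.10.9.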

Additional observations from a re-analysis of the deposited data

How the results depend on the processing

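Under the 8 settings that kept all 4 libraries, the fold changes of the tested members kept their sign in 53 of 53 values. Il6, Lif and Il6ra drop out at a mean of at least 5 FPKM. The filters on mean FPKM or span and the fit without a trend leave a gene's fold change as it is. Only the pseudocounts and the scalings could therefore have turned a sign. In any setting 0 members passed. The count of all genes that passed was 0 higher and 3 lower (Snora15, Snora47 and Snora69, all listed at 0 in Asxl1-/-); it was 1 lower with no filter and 0 lower without genes spanning under 300 bp. With 1 library left out it ran from 0 to 4 higher and from 1 to 6 lower; the 4 higher came without Asxl1-/- replicate 1. In those fits the lone library of a group is assumed to vary like the others. Log2 fold changes then ran from -0.62 to 0.99 for Lif, -0.39 to 0.71 for Il6ra, -0.84 to 0.56 for Il6st, -1.14 to 0.07 for Socs1 and -0.66 to 0.10 for Ptpn2; the cause was not tested. Between the 2 libraries low in macrophage markers the sign turned for Il6 (-0.30), Il6ra (-0.55) and Lifr (0.14). Between the 2 high in them it turned for Lif (-1.07) and Il6st (1.09). Osmr and Clcf1 keep their sign in any pair of 1 WT and 1 Asxl1-/- library, because their genotypes did not overlap. These pairs therefore tested nothing for Osmr and Clcf1. No paired analysis was possible because the labels give no replicate numbers that the genotypes share. Median ratio scaling moved the median of all genes from -0.07 to 0.01. With 2 libraries a group and unknown read numbers, the counting error of Osm, Il11 and Ctf1, under 1 FPKM on average, cannot be given.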

Other observations

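The ratio of Osmr to Lifr, the receptor chains that pair with gp130, was looked at after the values were seen. It differed between the genotypes without overlap, as Osmr did alone. Single genes did so for 15.6% of genes tested with Asxl1-/- higher and for 25.2% with Asxl1-/- lower. No such share was worked out for ratios. Osmr exceeded Lifr 5.49-fold and 5.32-fold in WT replicates 1 and 2 and 9.18-fold and 15.9-fold in Asxl1-/- replicates 1 and 2, on the FPKM scale. Il6st exceeded Osmr 4.83-fold and 1.74-fold in WT and was 0.997 and 2.52 times Osmr in Asxl1-/-, so that ratio overlapped. So did Il6st over Lifr, at 26.5 and 9.245 in WT and 9.154 and 40.03 in Asxl1-/-. Il6st over Il6ra, at 32.0 and 40.3 in WT and 19.5 and 39.6 in Asxl1-/-, overlapped too. Clcf1 exceeded Lif 23.4-fold and 3.52-fold in WT and 3.41-fold and 5.21-fold in Asxl1-/-, with WT replicate 1 standing apart.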
